A study of Mus musculus with 33 samples.

Results

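The 33 genes described here are target genes of the transcription factor p53, taken by name from 38899 genes that the 4 deposited FPKM tables share. FPKM is a read count divided by gene length and library size, so levels of different genes can be set side by side. The study profiled adult mouse bone marrow endothelium by RNA-seq in 33 libraries, 3 in each of 11 groups, from femur and tibia of C57BL/6 mice aged 8 to 12 weeks. Irradiated bone EC (endothelial cells) were GFP+ cells of Cdh5-mTnG mice given 9 Gy, and bone EC were the same sorted population from Cdh5-mTnG mice with no treatment. The 9Gy1D EC were sorted from the marrow of Cdh5-mTnG mice given 9 Gy, and Esm1+ EC from Esm1-CreER R26-mTmG mice given tamoxifen. That comparison therefore changes irradiation, genotype, tamoxifen and the marked cell population together, and they cannot be told apart. Vav1 DTX EC and Vav1 control EC both carry the labels Vav1-Cre R26-DTR Cdh5-mTnG and diphtheria toxin, and only their titles say which is which. Apln+ EC (Apln-CreERT2 R26-mTmG, tamoxifen), diaphysis EC (GFP+ cells of the bone shaft), Lin-Sca1+cKit+ stem and progenitor cells (LSK), lineage-negative cells (Lin-) and whole bone marrow cells (BMC) complete the set. The labels state no time after irradiation, and they do not say that replicates are separate animals, so p-values measure the spread between these libraries. Vav1-Cre is a driver of blood lineages that is also known to act in part of the endothelium.

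Radiation breaks DNA, and the kinase ATM, with CHK2, stabilises p53, which then binds paired decamer sequences near its target genes and raises their transcription. Its targets stop the cell cycle, start apoptosis, expose death receptors, help repair DNA, or, like the ubiquitin ligase Mdm2, bring p53 back down. Marrow sinusoidal vessels are known to be damaged by the doses used before marrow transplantation, and p53 is one of the factors known to set endothelial survival after irradiation.

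Promoter sequences of members are shown first because the members were chosen as p53 targets. RefSeq promoter windows of GRCm38.p6, from 250 bases before to 50 after a transcription start, were matched to 24 of the 33 members. An exact match to the p53 half-site consensus, a palindromic decamer that reads the same on both strands, lay in the windows of 10 of these 24 genes (41.7%) and of 2582 of all 27025 genes (9.55%). The 10 were Aen, Bax, Ccng1, Cdkn1a, Ei24, Gadd45a, Mdm2, Polk, Rps27l and Sesn1. Members with several starts have several windows, and by window the shares were 30.6% of 36 and 8.36% of 32851. Cdkn1a, Ccng1 and Rps27l also held 2 such decamers side by side with at most 1 mismatch over 20 bases, as in 0.107% of all genes. Each of these full sites contains 1 exact half-site. The other exact half-sites, at -73 from the start in Cdkn1a and -210 in Rps27l, lie outside them. A match is a description of letters and no evidence of binding. The sequences below run 5′ to 3′ on the gene's strand, end before its start site, overlap no annotated exon and have exact half-site matches in capitals. The Cdkn1a stretch lies at chr17:29090886-29090957 (+ strand), Ccng1 at chr11:40755442-40755491 (- strand), Mdm2 at chr10:117710915-117710964 (- strand) and Bax at chr7:45467070-45467119 (- strand).
Cdkn1a: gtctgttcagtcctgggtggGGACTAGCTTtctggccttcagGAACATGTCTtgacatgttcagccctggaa
Ccng1: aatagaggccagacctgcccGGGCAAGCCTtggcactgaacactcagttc
Mdm2: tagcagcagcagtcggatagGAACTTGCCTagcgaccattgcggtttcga
Bax: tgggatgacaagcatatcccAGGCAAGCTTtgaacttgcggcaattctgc

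The libraries held 1.55 to 12.29 M reads recovered from the FPKM steps (M, reads in units of 1e6), with 3.15 to 3.68 in irradiated bone EC, 2.72 to 3.26 in bone EC, 5.56 to 6.14 in 9Gy1D EC, 7.27 to 8.0 in Esm1+ EC, 9.8 to 12.29 in Vav1 DTX EC and 8.58 to 10.14 in Vav1 control EC. The sorted cells carried blood cell RNA. The 16 neutrophil genes summed to 1041 to 4610 FPKM in irradiated bone EC, against 48508 to 48900 FPKM in bone EC. The 18 pan-endothelial genes summed to 5458 to 7236 FPKM in irradiated bone EC, against 1898 to 2514 FPKM in bone EC. In 9Gy1D EC the pan-endothelial sum was 4396 to 6331 FPKM, against 1220 to 2338 FPKM in Esm1+ EC, and the neutrophil sum was 28975 to 51164 FPKM, against 81681 to 88309 FPKM. The Vav1 groups overlapped in the pan-endothelial sum, at 1651 to 3612 FPKM in Vav1 DTX EC and 1699 to 2099 FPKM in Vav1 control EC, while the erythroid sum was 1810 to 3456 FPKM in Vav1 DTX EC and 45288 to 85080 FPKM in Vav1 control EC. The part of this change in cell make-up in each result below was not tested, and fewer cells of a type and less RNA per cell cannot be told apart. The counts of all members called are therefore also given after every library was scaled to Cdh5 (VE-cadherin, an endothelial junction protein). Counts of groups apart, and most counts of smaller or other gene lists, are on FPKM alone. Cdh5 had 180 to 200 FPKM in irradiated bone EC, 64.1 to 93.7 in bone EC, 45.1 to 73.2 in 9Gy1D EC, 14.1 to 20.6 in Esm1+ EC, 21.8 to 56.0 in Vav1 DTX EC and 18.2 to 28.5 in Vav1 control EC. That scaling moved the median log2 difference of all genes to -0.97 for irradiated bone EC, -1.45 for 9Gy1D EC and -0.25 for Vav1 DTX EC, against medians of 0.06, 0 and 0.03 without it. Some libraries stood apart. Esm1+ EC replicates 1 and 2 differed by little more than sampling noise, with a chi-square per gene of 1.39, against 3.13 to 182 in the other pairs of replicates. The adjusted p of that comparison count them as separate libraries, which may make those p too small. With the 2 averaged, only the member count and the lost calls are given. Vav1 DTX EC replicate 2 differed from replicates 1 and 3 in several members.

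**Figure D1:**
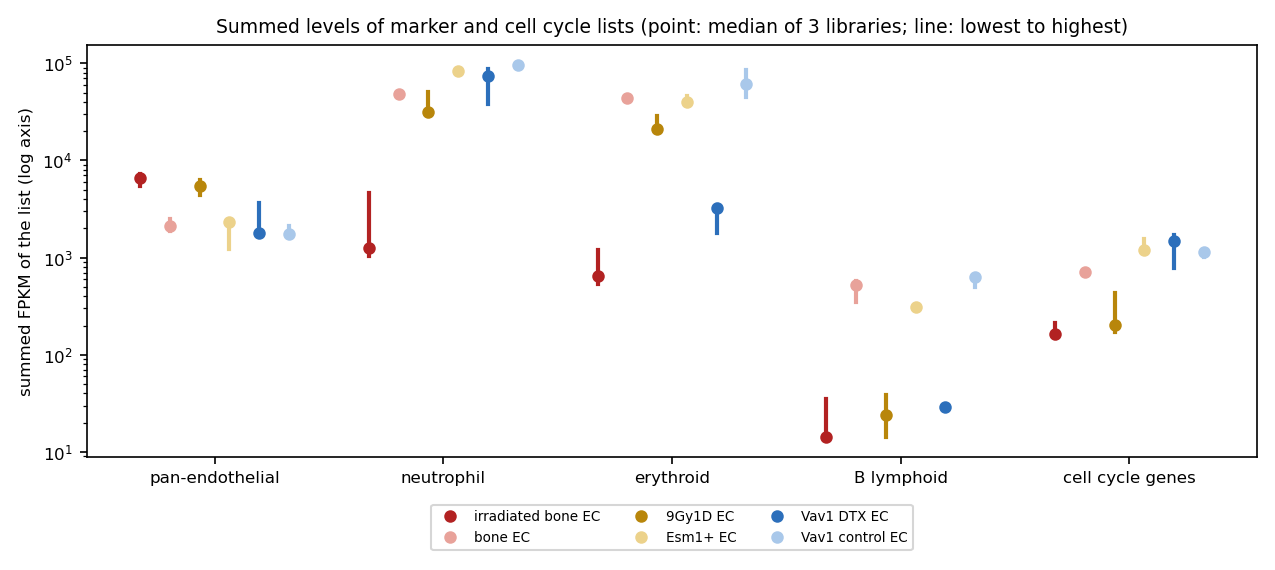
Summed FPKM of 5 gene lists in the 6 compared groups, on a log axis, with the median of 3 libraries as a point and a line from the lowest to the highest. The neutrophil sum of irradiated bone EC (1041 to 4610) lies below that of bone EC (48508 to 48900), and the pan-endothelial sum (5458 to 7236) above it (1898 to 2514).

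The first comparison asked how bone endothelium differs after 9 Gy. Of 32 members tested, 17 rose in irradiated bone EC, 5 fell and 10 did not pass the test, although after scaling to Cdh5 only 5 were higher and 13 lower. That scaling called 9245 of the 13044 genes tested, and 3.5% of those calls were higher. Most genes tested were thus called lower after it, and the 13 of 32 members lower lie below that share. On FPKM the median member differed by 0.91 on the log2 scale, against 0.06 over all 13044 genes tested. Of all those genes 41.9% were called at an adjusted p below 0.05, with 22.5% higher and 19.4% lower. The 5 members that fell lie near the share of all genes called lower. Cdkn1a, Ephx1, Phlda3, Eda2r and Zmat3 were the members called higher on FPKM and after scaling alike. The groups did not overlap for 17 members that were higher and 6 that were lower in irradiated bone EC, and over all genes 29.6% and 24.6% were apart in these directions. Perp, which lines desmosomes and takes part in apoptosis, was not tested for low values, with 0.270, 0.163 and 0.273 FPKM in irradiated bone EC, against 2.88, 1.72 and 0.870 FPKM in bone EC. Eda2r and Zmat3 passed the filter of 1 FPKM in 3 libraries through the irradiated group alone, so they had to differ.

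Of the 10 members that act on the cell cycle or on p53 itself, 4 rose and 4 fell. Cdkn1a encodes p21, the inhibitor of cyclin-dependent kinases through which p53 stops the cell cycle, at chromosome 17, positions 29090976 to 29100727 of GRCm38. It had 481, 349 and 403 FPKM in irradiated bone EC, against 75.3, 83.4 and 50.8 FPKM in bone EC. Every irradiated library lay above every untreated one, and the log2 difference was 2.56 (SE 0.22, adjusted p = 0.00031). Ccng1, encoding cyclin G1, had 47.7, 90.4 and 49.8 FPKM in irradiated bone EC, against 18.8, 23.8 and 13.5 FPKM in bone EC, a log2 difference of 1.66 (SE 0.30, adjusted p = 0.0041). Zmat3, an RNA-binding zinc finger protein, had 6.53, 4.26 and 5.26 FPKM after irradiation, against 0.406, 0.970 and 0.852 FPKM in bone EC, a difference of 1.87 (SE 0.21, adjusted p = 0.00062). The polo-like kinase gene Plk2 had 122, 199 and 165 FPKM in irradiated bone EC, against 65.0, 46.6 and 38.8 FPKM in bone EC, a difference of 1.68 (SE 0.25, adjusted p = 0.0018). The groups did not overlap for these 4 genes.

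Mdm2, the ubiquitin ligase that degrades p53, was not called. Its levels were 14.8, 17.3 and 15.4 FPKM in irradiated bone EC, against 15.5, 9.35 and 9.57 FPKM in bone EC, so the groups overlapped. The log2 difference of 0.47 (SE 0.20, adjusted p = 0.11) did not pass the test, but without bone EC replicate 1 it was 0.68 (adjusted p = 0.016), as TPM it was 0.74 (adjusted p = 0.044), and scaled to Cdh5 it was -0.70 (adjusted p = 0.069). Psrc1, a microtubule regulator, averaged 1.09 ± 0.171 FPKM in irradiated bone EC and 1.25 ± 0.0979 FPKM in bone EC (SD, n = 3 each).

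The 4 arrest genes that fell in irradiated bone EC were Gadd45a, Btg2, Ptp4a3 and Plk3. Gadd45a, a growth arrest protein induced by DNA damage, had 26.2, 17.3 and 21.2 FPKM in irradiated bone EC, against 70.5, 56.0 and 50.9 FPKM in bone EC, a log2 difference of -1.42 (SE 0.19, adjusted p = 0.0013). Btg2, an antiproliferative cofactor of mRNA decay, had 327, 306 and 303 FPKM in irradiated bone EC, against 598, 559 and 484 FPKM in bone EC, a difference of -0.80 (SE 0.15, adjusted p = 0.0053). Ptp4a3, a phosphatase gene, had 18.2, 21.4 and 13.2 FPKM after irradiation, against 39.1, 40.6 and 36.7 FPKM in bone EC, a difference of -1.12 (SE 0.18, adjusted p = 0.0028). None of these 3 genes had overlapping groups. Plk3, another polo-like kinase gene, had 20, 14.1 and 14.0 FPKM in irradiated bone EC, against 44.5, 23.1 and 25.2 FPKM in bone EC. Its difference of -0.86 (SE 0.27, adjusted p = 0.037) lost the call without bone EC replicate 1 (-0.58, adjusted p = 0.066) or 3 (-0.98, adjusted p = 0.057), without irradiated replicate 2 (-0.79, adjusted p = 0.096) or 3 (-0.78, adjusted p = 0.11), with no filter on low values (adjusted p = 0.067) and as TPM (-0.63, adjusted p = 0.11). Whole marrow cells, made with another library kit, had a mean of 80.2 FPKM of Gadd45a, 64.2 of Plk3, 481 of Btg2 and 22.2 of Ptp4a3, against 59.1, 30.9, 547 and 38.8 FPKM in bone EC.

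Of 8 tested apoptosis members 5 rose, of which Phlda3 alone kept the call after scaling to Cdh5. None fell by limma, and 1 was lower at an unadjusted p below 0.05 and 1 by voom on the recovered reads. Phlda3, which competes with the survival kinase Akt for membrane lipids, lies on chromosome 1 at 135766119 to 135769136. It had 117, 105 and 101 FPKM in irradiated bone EC, against 9.47, 17.8 and 13.4 FPKM in bone EC, a log2 difference of 2.94 (SE 0.22, adjusted p = 0.00025). Bax, which opens the mitochondrial outer membrane, had 250, 163 and 188 FPKM in irradiated bone EC, against 62.3, 72.6 and 63.4 FPKM in bone EC, a difference of 1.56 (SE 0.19, adjusted p = 0.00076). Bbc3, encoding the BH3-only protein PUMA, had 10.1, 9.59 and 12.0 FPKM in irradiated bone EC, against 5.31, 3.26 and 4.67 FPKM in bone EC, a difference of 1.11 (SE 0.19, adjusted p = 0.0033). In all 3 of these genes the irradiated libraries lay above the untreated ones. Aen, a nuclease that enhances apoptosis, had 9.60, 13.1 and 11.3 FPKM in irradiated bone EC, against 3.94, 3.22 and 2.96 FPKM in bone EC, a difference of 1.49 (SE 0.17, adjusted p = 0.00063). Ei24, a protein of the endoplasmic reticulum, had 48.0, 48.7 and 57.1 FPKM after irradiation, against 17.9, 20.7 and 22.1 FPKM in bone EC, a difference of 1.30 (SE 0.14, adjusted p = 0.00056). Both genes had groups that did not overlap.

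Pmaip1, encoding the BH3-only protein NOXA, averaged 13.2 ± 3.72 FPKM in irradiated bone EC and 21.7 ± 7.01 FPKM in bone EC (SD, n = 3 each), and its log2 difference of -0.67 (adjusted p = 0.080) did not pass the test. It was called lower with the replicate number as a block (adjusted p = 0.028), by voom on the recovered reads (-0.81, adjusted p = 0.036), without irradiated replicate 1 (-0.87, adjusted p = 0.027) and scaled to Cdh5 (-1.84, adjusted p = 0.0014) or to the pan-endothelial list (-1.76, adjusted p = 0.0018). Apaf1, the scaffold of the apoptosome, averaged 6.83 ± 1.71 FPKM in irradiated bone EC and 5.79 ± 1.51 FPKM in bone EC. Trp53inp1, a stress protein that binds p53, averaged 13.1 ± 2.22 FPKM in irradiated bone EC and 10.7 ± 2.86 FPKM in bone EC. These 3 genes had overlapping groups.

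Of the 3 receptors and 1 secreted factor, 2 rose. Eda2r, the receptor for ectodysplasin A2 on chromosome X at 97333840 to 97377216, had the largest ratio of group means among the 33 members. It had 4.22, 5.38 and 5.51 FPKM in irradiated bone EC, against 0.186, 0.222 and 0.0468 FPKM in bone EC. These rest on 97, 102 and 125 reads after irradiation, against 4, 4 and 1 reads in bone EC. The ratio of means was 33.2 and the log2 difference, understated for low levels by the pseudocount of 1, was 2.39 (SE 0.16, adjusted p = 0.00023). Tnfrsf10b, the mouse TRAIL receptor, had 7.03, 6.36 and 6.71 FPKM in irradiated bone EC, against 2.84, 3.20 and 2.61 FPKM in bone EC, a difference of 0.99 (SE 0.14, adjusted p = 0.0015) that became -0.03 (adjusted p = 0.92) after scaling to Cdh5. Fas, the death receptor for FasL, averaged 10.4 ± 1.60 FPKM in irradiated bone EC and 8.93 ± 2.84 FPKM in bone EC. Gdf15, a secreted stress hormone, had 13.7, 5.37 and 5.32 FPKM in irradiated bone EC, against 6.20, 7.77 and 5.51 FPKM in bone EC. The Gdf15 groups overlapped, and the log2 difference of 0.18 (SE 0.34, adjusted p = 0.71) turned to -0.23 without irradiated replicate 1 (adjusted p = 0.33) and to -0.91 after scaling to Cdh5 (adjusted p = 0.044).

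All 5 members of the repair and nucleotide supply group were called, 4 higher and 1 lower. Xpc, which senses distorted DNA in nucleotide excision repair, had 11, 20.8 and 17.4 FPKM in irradiated bone EC, against 6.92, 5.90 and 8.23 FPKM in bone EC, a log2 difference of 1.09 (SE 0.24, adjusted p = 0.010). Ddb2, another sensor of that pathway, had 7.31, 9.31 and 10.3 FPKM after irradiation, against 4.10, 5.02 and 5.34 FPKM in bone EC, a difference of 0.77 (SE 0.17, adjusted p = 0.010). Ercc5, the endonuclease XPG, had 5.26, 5.66 and 5.32 FPKM in irradiated bone EC, against 3.18, 2.09 and 2.64 FPKM in bone EC, a difference of 0.83 (SE 0.16, adjusted p = 0.0059). These 3 genes act in nucleotide excision repair, none had overlapping groups, and none stayed called after scaling to Cdh5, where all 3 differences were below 0. The translesion polymerase gene Polk had 3.89, 7.24 and 5.26 FPKM in irradiated bone EC, against 1.91, 1.68 and 3.02 FPKM in bone EC. Its difference of 1 (SE 0.25, adjusted p = 0.016) lost the call without bone EC replicate 1 (0.95, adjusted p = 0.052) or 2 (0.88, adjusted p = 0.056). Rrm2b, the ribonucleotide reductase subunit that p53 induces, had 1.19, 1.06 and 1.21 FPKM in irradiated bone EC, against 2.68, 2.29 and 2.06 FPKM in bone EC. It fell by 0.63 on the log2 scale (SE 0.15, adjusted p = 0.014), and as TPM by 0.60 (adjusted p = 0.055). Whole marrow cells, made with another library kit, had a mean of 8.61 FPKM of Rrm2b, against 2.34 FPKM in bone EC. Some members that did not fall were higher there too. Trp53inp1 and Apaf1, not called, had 49.2 and 23.0 FPKM, against 10.7 and 5.79 in bone EC. Ccng1, which rose, had 29.5 against 18.7 FPKM, and the part of blood RNA was not tested.

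Of the 5 metabolic and other members, 2 rose. Ephx1, the microsomal epoxide hydrolase, lies on chromosome 1 at 180976210 to 181020904. It had 175, 163 and 200 FPKM in irradiated bone EC, against 21.1, 19.2 and 22.1 FPKM in bone EC, a log2 difference of 3.04 (SE 0.13, adjusted p = 0.00013). The irradiated libraries lay far above the untreated ones, with little spread in either group. Sesn2, an inhibitor of the growth kinase mTORC1, had 23.4, 33.2 and 36.9 FPKM in irradiated bone EC, against 12.7, 9.41 and 8.96 FPKM in bone EC, a difference of 1.49 (SE 0.21, adjusted p = 0.0015). Its relative Sesn1 averaged 11.9 ± 0.810 FPKM in irradiated bone EC and 11.1 ± 2.73 FPKM in bone EC, and did not pass the test. Ak1, an adenylate kinase gene, had 7.62, 72.8 and 6.04 FPKM in irradiated bone EC, against 0.979, 16.9 and 2.37 FPKM in bone EC. Replicate 2 was high in each group, and the difference of 1.74 (SE 1.08, adjusted p = 0.24) passed only with the replicate number as a block (adjusted p = 0.0062). Rps27l, a relative of ribosomal protein S27, averaged 158 ± 49.8 FPKM in irradiated bone EC and 121 ± 32.5 FPKM in bone EC, with overlapping groups.

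**Figure D2:**
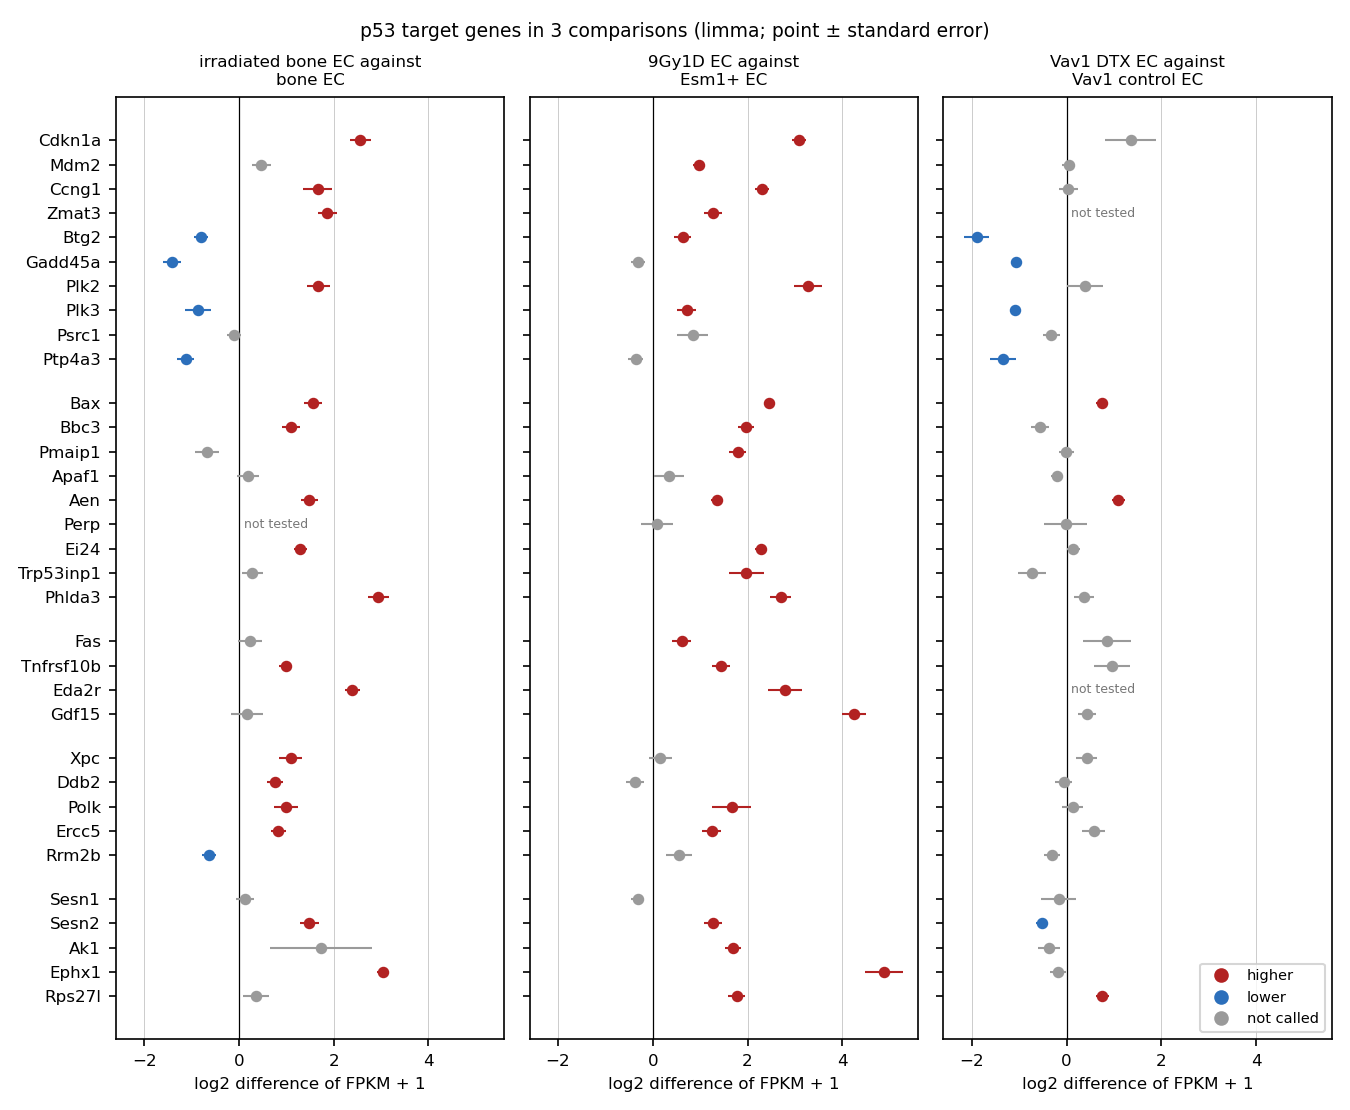
Log2 difference of FPKM + 1 with its standard error for the 33 members in 3 comparisons (3 libraries a group), ordered by role from arrest genes at the top to metabolic genes at the bottom; red and blue are adjusted p below 0.05. Of the members, 17 were higher and 5 lower in irradiated bone EC, 24 higher in 9Gy1D EC, and 3 higher and 5 lower in Vav1 DTX EC.

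The second comparison set 9Gy1D EC against Esm1+ EC, and here all 33 members were tested. On FPKM 24 rose, none fell and 9 did not pass the test, although after scaling to Cdh5 7 were higher and 11 lower. That scaling called 9709 of the 11746 genes tested, and 4% of those calls were higher. Most genes tested were thus called lower after it, and the 11 of 33 members lower lie below that share. The limma count of 0 lower on FPKM compares with 1 member lower at an unadjusted p below 0.05 and 0 by voom. On FPKM 43.7% of all 11746 genes tested were called, 20.6% higher and 23.1% lower. The median member differed by 1.35, against 0 for all genes. Without 9Gy1D EC replicate 1 limma called 1 member lower. The groups did not overlap for 25 members higher and 2 lower (Ddb2 and Sesn1) in 9Gy1D EC, against 27.6% and 29.8% of all genes. Ddb2 was below 1 FPKM in every 9Gy1D library and passed the filter through Esm1+ EC alone, so its groups had to be apart. The 9 members not called (Apaf1, Ddb2, Gadd45a, Perp, Psrc1, Ptp4a3, Rrm2b, Sesn1 and Xpc) had log2 differences of -0.38 to 0.84. With Esm1+ replicates 1 and 2 averaged, 22 members were higher, and Btg2 and Fas lost the call. The other adjusted p of this comparison count these 2 replicates as separate libraries. The 7 members higher on FPKM and after scaling were Cdkn1a, Eda2r, Ephx1, Gdf15, Phlda3, Plk2 and Zmat3. Eda2r, Zmat3 and Tnfrsf10b were below 1 FPKM in every Esm1+ library, so they passed the filter through the 9Gy1D group alone and had to differ.

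Cdkn1a had 477, 529 and 525 FPKM in 9Gy1D EC, against 64.9, 64.5 and 49.2 FPKM in Esm1+ EC, a log2 difference of 3.09 (adjusted p = 2.3e-05). Mdm2 had 45.1, 41.0 and 45.6 FPKM in 9Gy1D EC, against 21.5, 23.0 and 21.2 FPKM in Esm1+ EC, a difference of 0.97 (adjusted p = 0.00075), which became -0.72 after scaling to Cdh5 (adjusted p = 0.044). Ccng1 had 146, 103 and 114 FPKM in 9Gy1D EC, against 23.4, 24.7 and 22.5 FPKM in Esm1+ EC, a difference of 2.30. The groups were apart in all 3 of these arrest and feedback genes. Plk2 had 248, 288 and 355 FPKM in 9Gy1D EC, against 37.4, 38.0 and 17.7 FPKM in Esm1+ EC, a difference of 3.28. Zmat3 had 1.95, 2.01 and 1.10 FPKM in 9Gy1D EC, against 0.0707, 0.0808 and 0.119 FPKM in Esm1+ EC, a difference of 1.28. For Plk2 and Zmat3, too, no 9Gy1D library reached down to the Esm1+ range.

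Btg2 and Plk3, which fell in irradiated bone EC, rose here on FPKM and turned round after scaling to Cdh5. That scaling lowered the median of all genes by more than either rise, so the turn says nothing particular to these genes. Btg2 had 1088, 885 and 918 FPKM in 9Gy1D EC, against 685, 685 and 510 FPKM in Esm1+ EC, a log2 difference of 0.63 (adjusted p = 0.027) that was -1.12 after scaling (adjusted p = 0.012). Plk3 had 141, 123 and 105 FPKM in 9Gy1D EC, against 84.2, 85.1 and 55.7 FPKM in Esm1+ EC, a difference of 0.72 (adjusted p = 0.024) that was -1.01 after scaling (adjusted p = 0.015). Btg2 lost the call without any single library other than 9Gy1D replicate 1 (adjusted p of 0.050 to 0.065), and with Esm1+ replicates 1 and 2 averaged (0.063). Plk3 lost it without 9Gy1D replicate 1 (adjusted p = 0.062) or 2 (adjusted p = 0.069).

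The apoptosis members rose in 7 of 9 cases. Bax had 332, 352 and 312 FPKM in 9Gy1D EC, against 57.4, 58.8 and 62.4 FPKM in Esm1+ EC, a log2 difference of 2.46 (adjusted p = 2e-05). Bbc3 had 28.3, 21.9 and 24.5 FPKM in 9Gy1D EC, against 6.40, 6.05 and 4.52 FPKM in Esm1+ EC, a difference of 1.96. Pmaip1 had 20.2, 23.2 and 26.4 FPKM in 9Gy1D EC, against 4.81, 6.32 and 7.02 FPKM in Esm1+ EC, a difference of 1.79. These groups did not overlap. Phlda3 had 171, 214 and 194 FPKM in 9Gy1D EC, against 35.6, 32.7 and 20.3 FPKM in Esm1+ EC, a difference of 2.70. Ei24 had 44.2, 51.1 and 52.6 FPKM in 9Gy1D EC, against 8.59, 10.1 and 9.11 FPKM in Esm1+ EC, a difference of 2.29. The other two called members of this group were Aen and Trp53inp1. Aen had 15.9, 17.8 and 17.8 FPKM in 9Gy1D EC, against 5.80, 6.32 and 6.15 FPKM in Esm1+ EC, a difference of 1.35. Trp53inp1 had 15.2, 15.6 and 33.5 FPKM in 9Gy1D EC, against 3.44, 3.31 and 7.08 FPKM in Esm1+ EC, a difference of 1.97. No 9Gy1D library reached the Esm1+ range in either gene.

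All 3 receptors and Gdf15 rose. Gdf15, whose irradiated and untreated bone EC groups overlapped, had 29, 32.8 and 34.3 FPKM in 9Gy1D EC, against 0.231, 0.776 and 1.41 FPKM in Esm1+ EC. The log2 difference was 4.24 (adjusted p = 6e-05) and stayed at 2.95 after scaling to Cdh5. Eda2r had 4.35, 6.37 and 12.7 FPKM in 9Gy1D EC, against 0.364, 0.200 and 0 FPKM in Esm1+ EC, on 149, 245 and 462 reads against 15, 9 and 0. Tnfrsf10b had 2.93, 4.59 and 4.61 FPKM in 9Gy1D EC, against 0.676, 0.989 and 0.868 FPKM in Esm1+ EC, a difference of 1.44. The Eda2r difference was 2.79 (adjusted p = 0.00097), and neither receptor had overlapping groups. Fas had 29.5, 22.5 and 26.1 FPKM in 9Gy1D EC, against 18.9, 19.7 and 12.3 FPKM in Esm1+ EC, a difference of 0.61 (adjusted p = 0.045). It lost the call without any one of the 6 libraries (adjusted p of 0.055 to 0.11), with the replicate block (0.062) and with Esm1+ replicates 1 and 2 averaged (0.060).

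Of the repair genes, Ercc5 and Polk rose. Ercc5 had 6.66, 5.62 and 6.88 FPKM in 9Gy1D EC, against 1.79, 1.70 and 3.01 FPKM in Esm1+ EC, a log2 difference of 1.24. Polk had 4.69, 7.50 and 8.56 FPKM in 9Gy1D EC, against 2.27, 2.38 and 0.289 FPKM in Esm1+ EC, a difference of 1.67 (adjusted p = 0.014) that lost the call without 9Gy1D replicate 2 or 3 (adjusted p = 0.052 each). Ddb2 and Xpc, called in irradiated bone EC, were not called here. Ddb2 averaged 0.701 ± 0.283 FPKM in 9Gy1D EC and 1.20 ± 0.172 FPKM in Esm1+ EC (SD, n = 3 each), and Xpc averaged 13.8 ± 1.65 FPKM in 9Gy1D EC and 12.6 ± 3.92 FPKM in Esm1+ EC. Ephx1 had 334, 392 and 358 FPKM in 9Gy1D EC, against 17.1, 16.6 and 4.87 FPKM in Esm1+ EC, a difference of 4.88 (adjusted p = 0.00023). Ephx1 had the largest difference on the log2(FPKM + 1) scale in both irradiation comparisons. By ratio of group means it was behind Eda2r in both, at 8.60 against 33.2 in irradiated bone EC and 28.2 against 41.6 in 9Gy1D EC, and behind Gdf15 (39.7) in 9Gy1D EC.

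Besides Ephx1, 3 members of the metabolic group were called. Sesn2 had 64.9, 69.8 and 62.0 FPKM in 9Gy1D EC, against 30.3, 31.0 and 19.5 FPKM in Esm1+ EC, a log2 difference of 1.28 that was -0.43 after scaling to Cdh5 (adjusted p = 0.20). Ak1 had 8.98, 10.7 and 11.6 FPKM in 9Gy1D EC, against 2.97, 2.29 and 2.27 FPKM in Esm1+ EC, a difference of 1.70. Rps27l had 196, 226 and 168 FPKM in 9Gy1D EC, against 51.3, 50.1 and 71.0 FPKM in Esm1+ EC, a difference of 1.77. The groups were apart in these 3 genes.

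**Figure D3:**
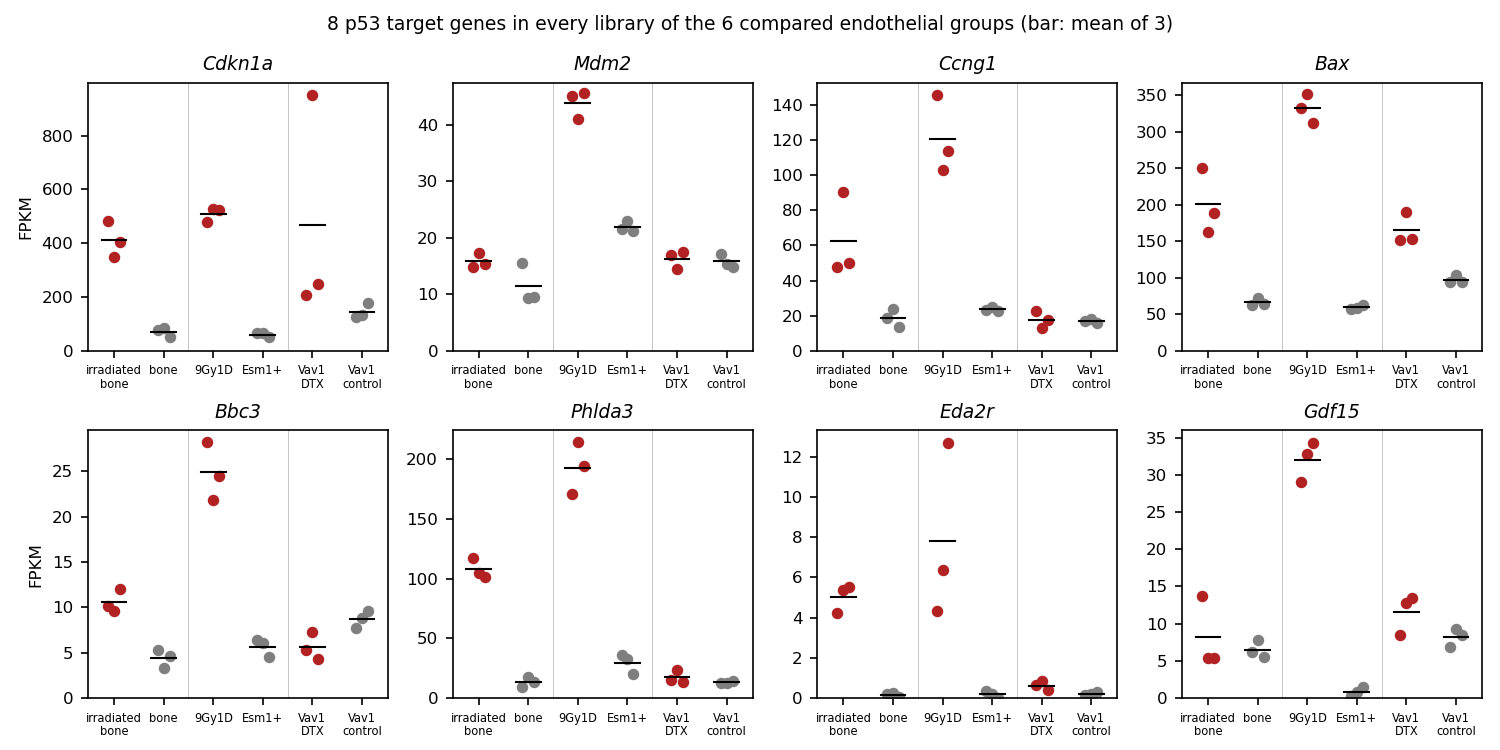
FPKM of 8 members in each of 3 libraries of the 6 compared groups (points) with the group mean (bar), on linear axes from 0. Mdm2 and Gdf15 are high in 9Gy1D EC (41.0 to 45.6 and 29 to 34.3 FPKM) but overlap between irradiated and untreated bone EC, and Vav1 DTX EC replicate 2 has 951 FPKM of Cdkn1a.

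The 2 irradiation comparisons share no library. They had 15 members called higher in both, which is 15 of the 17 higher in irradiated bone EC and 15 of the 24 higher in 9Gy1D EC. Over the 32 members tested in both, the log2 differences correlated at r = 0.65 and rho = 0.66, given as a description because genes of one pathway are not independent. The same sign was seen in 25 of the 32. Of all genes tested 22.5% were called higher in irradiated bone EC and 20.6% in 9Gy1D EC. The share of all genes higher in both, and their correlation and shared signs, were not computed. How far the members agree more than other genes was therefore not tested. Not called in either were Apaf1, Psrc1 and Sesn1. Higher in 9Gy1D EC alone were Ak1, Fas, Gdf15, Mdm2, Pmaip1, Rps27l and Trp53inp1, in the sense that they passed the test there and not in irradiated bone EC, and the difference between the comparisons was not tested.

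**Figure D4:**
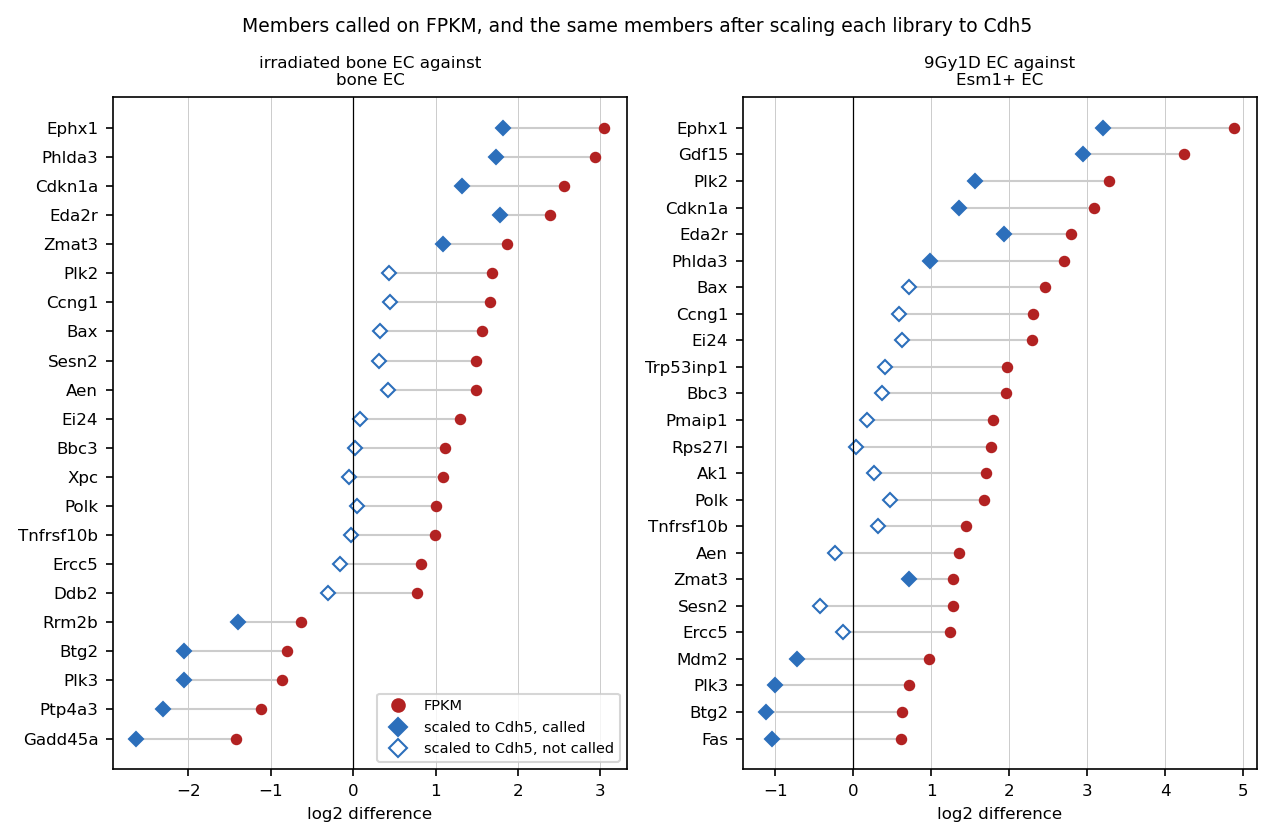
Log2 differences of the members called on FPKM (red points) and of the same members after each library was scaled to Cdh5 (blue diamonds, filled where adjusted p is below 0.05), for 2 comparisons of 3 libraries a group. All members move left, and 5 of 17 in irradiated bone EC and 7 of 24 in 9Gy1D EC keep a higher call.

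The third comparison, without irradiation, set Vav1 DTX EC against Vav1 control EC, in a model that directs diphtheria toxin at Vav1-Cre cells. Of 31 members tested 3 rose, 5 fell and 23 did not pass the test, and after scaling to Cdh5 0 were higher and 2 lower. That scaling called 1167 of the 11664 genes tested, and 9.9% of those calls were higher. Of all 11664 genes tested 26.3% were called, 11.3% higher and 15.0% lower, and the median member differed by -0.01, against 0.03 for all genes. The 3 members that rose and the 5 that fell lie near those shares. Without Vav1 DTX EC replicate 2, 6 members were higher and 8 lower. Without Vav1 control EC replicate 1 the counts were 1 and 3, and without control replicate 2, 3 members were lower. Eda2r and Zmat3 were below the filter, with 0.381 to 0.819 and 0.290 to 0.382 FPKM in Vav1 DTX EC, against 0.136 to 0.302 and 0.199 to 0.403 FPKM in Vav1 control EC.

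Cdkn1a had 208, 951 and 249 FPKM in Vav1 DTX EC, against 126, 132 and 177 FPKM in Vav1 control EC. The groups did not overlap, and replicate 2 was several times above its group. The log2 difference of 1.35 (SE 0.54, adjusted p = 0.11) did not pass the test, whereas without that library it was 0.67 (adjusted p = 0.016). In the same library Fas had 72.7 FPKM, against 14.3 and 25.8 in the other two, and Plk2 had 143 FPKM, against 60.9 and 46.2.

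Bax had 152, 190 and 153 FPKM in Vav1 DTX EC, against 94.1, 104 and 93.4 FPKM in Vav1 control EC, a log2 difference of 0.75 (adjusted p = 0.0070). Aen had 6.75, 7.14 and 6.20 FPKM in Vav1 DTX EC, against 2.91, 2.75 and 2.21 FPKM in Vav1 control EC, a difference of 1.09 (adjusted p = 0.0020). Rps27l had 228, 232 and 258 FPKM in Vav1 DTX EC, against 137, 165 and 126 FPKM in Vav1 control EC, a difference of 0.75 (adjusted p = 0.0082). These were the 3 members that rose, with groups apart, and none was called after scaling to Cdh5. Without Vav1 control replicate 1, Bax (adjusted p = 0.050) and Rps27l (adjusted p = 0.055) lost the call, and Rps27l did so without control replicate 3 (adjusted p = 0.054).

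The 5 members that fell, a count near the share of all genes called lower, include 4 that also fell in irradiated bone EC. The share of all genes that fell in both was not computed. Btg2 had 137, 245 and 119 FPKM in Vav1 DTX EC, against 591, 592 and 597 FPKM in Vav1 control EC, a log2 difference of -1.90 (adjusted p = 0.0025). Gadd45a had 45.3, 46.3 and 45.4 FPKM in Vav1 DTX EC, against 88.7, 106 and 96.6 FPKM in Vav1 control EC, a difference of -1.07 (adjusted p = 0.00084). Plk3 had 39.0, 44.3 and 37.6 FPKM in Vav1 DTX EC, against 87.6, 85.6 and 87.1 FPKM in Vav1 control EC, a difference of -1.09 (adjusted p = 0.00073). The control libraries were close to each other and above every DTX library in these 3 genes. Ptp4a3 had 14.4, 32.0 and 17.7 FPKM in Vav1 DTX EC, against 51.5, 60.9 and 46.6 FPKM in Vav1 control EC, a difference of -1.34 (adjusted p = 0.013) that lost the call without control replicate 1 (adjusted p = 0.058) or 2 (0.065). Sesn2 had 8.43, 7.78 and 7.19 FPKM in Vav1 DTX EC, against 12.2, 11 and 11.4 FPKM in Vav1 control EC, a difference of -0.52 (adjusted p = 0.023) that lost the call without any one library other than DTX replicates 1 and 2 (adjusted p of 0.055 to 0.11), with the replicate block (0.068) and as TPM (0.15). In these 2 genes, as in the others, the groups did not overlap.

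Other members central to the pathway were not called. Mdm2 had 17.0, 14.4 and 17.4 FPKM in Vav1 DTX EC, against 17.2, 15.3 and 14.9 FPKM in Vav1 control EC. Ccng1 had 22.5, 12.9 and 17.4 FPKM in Vav1 DTX EC, against 17.1, 17.9 and 15.5 FPKM in Vav1 control EC. Phlda3 had 15.1, 23.8 and 13.4 FPKM in Vav1 DTX EC, against 12.4, 12.2 and 14.3 FPKM in Vav1 control EC. All 3 had overlapping groups. Bbc3 had 5.34, 7.26 and 4.33 FPKM in Vav1 DTX EC, against 7.71, 8.77 and 9.65 FPKM in Vav1 control EC, a log2 difference of -0.57 (adjusted p = 0.068) that was -0.74 without DTX replicate 2 (adjusted p = 0.0070). Gdf15 had 8.45, 12.8 and 13.5 FPKM in Vav1 DTX EC, against 6.88, 9.31 and 8.49 FPKM in Vav1 control EC, with overlapping groups.

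A test of the difference itself, (irradiated bone EC minus bone EC) minus (Vav1 DTX EC minus Vav1 control EC), called 11 of 33 members, all with the larger value on the irradiation side. None was called lower by limma, none was at an unadjusted p below 0.05 in that direction, and voom called 0. Of all 13779 genes tested 26.7% were called, 13.7% higher and 13.1% lower, and without irradiated replicate 2 or 3 the members called numbered 7. After scaling to Cdh5, 2 members were called, beside 613 of all genes, and 30.2% of those calls were higher. The largest difference of the contrasts was 3.23 for Ephx1 (SE 0.22, adjusted p = 1.1e-05), followed by 2.57 for Phlda3 (SE 0.32, adjusted p = 0.00057), and these 2 were also called after scaling, at 2.32 (adjusted p = 0.012) and 1.64 (adjusted p = 0.045). Sesn2 (2.01), Bbc3 (1.68), Ccng1 (1.63) and Ei24 (1.16) were called without any one of the 12 libraries as well. Eda2r (1.98) and Zmat3 (1.81) were below 1 FPKM in every library of the other 3 groups, so they passed the filter through irradiated bone EC alone, which favours a value on that side, and were not tested once an irradiated library was left out. Btg2 (1.09), Ddb2 (0.83) and Bax (0.82) each lost the call in several of these fits, at adjusted p up to 0.083. The Btg2 value arises between 2 falls, of -0.80 and -1.90. Cdkn1a differed by 1.21 (SE 0.65, adjusted p = 0.19), and by 1.89 without Vav1 DTX EC replicate 2 (adjusted p = 0.0014). Mdm2 (0.43, adjusted p = 0.22) and Gdf15 (-0.26, adjusted p = 0.69) were not called, but Mdm2 was without bone EC replicate 1 (0.64, adjusted p = 0.027).

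Over all 11 groups the tables were normalized separately, so the order of levels is a description. By mean FPKM, 16 of the 33 members were highest in 9Gy1D EC, 4 in irradiated bone EC, 4 in BMC, 3 in LSK, 2 each in Apln+ EC and Vav1 DTX EC, and 1 each in Lin- and diaphysis EC. Cdkn1a averaged 510 ± 28.9 FPKM in 9Gy1D EC, 469 ± 418 in Vav1 DTX EC, 411 ± 66.6 in irradiated bone EC, 258 ± 26.6 in LSK, 145 ± 28.2 in Vav1 control EC, 129 ± 19.3 in Apln+ EC, 125 ± 20 in diaphysis EC, 69.8 ± 16.9 in bone EC, 59.5 ± 8.94 in Esm1+ EC, 18.5 ± 1.80 in BMC and 9.99 ± 3.93 in Lin- (SD, n = 3 each). Neighbours in that order overlapped among the first 3 groups, from Vav1 control EC to diaphysis EC, and between bone EC and Esm1+ EC. Unirradiated LSK thus lay between irradiated bone EC and all unirradiated EC groups other than Vav1 DTX EC. Phlda3, at 193 ± 21.7 FPKM in 9Gy1D EC and 108 ± 8.13 in irradiated bone EC, was next highest in Apln+ EC at 35.6 ± 18.2 and lowest in LSK at 0.352 ± 0.181, with no overlap among the first 3. Eda2r was at 7.82 ± 4.38 FPKM in 9Gy1D EC and 5.03 ± 0.707 in irradiated bone EC, which overlapped, and at no more than 0.618 ± 0.221 FPKM in the other 9 groups. Ephx1 was at 362 ± 28.9 FPKM in 9Gy1D EC and 179 ± 18.6 in irradiated bone EC, which were apart from each other and from diaphysis EC, the next, at 32.0 ± 7.25. Mdm2 had its top mean of 43.9 FPKM in 9Gy1D EC, apart from 23.0 in BMC, and from there down to Lin- (10.1 FPKM) each group overlapped the next.

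As a ratio to Cdh5 within each library, the order of the 8 EC groups changed for Cdkn1a. The ratio was 12.5 ± 4.05 in Vav1 DTX EC, 8.61 ± 1.75 in 9Gy1D EC, 6.06 ± 0.918 in Vav1 control EC, 5.05 ± 4.35 in Apln+ EC, 4.54 ± 0.276 in diaphysis EC, 3.32 ± 0.170 in Esm1+ EC, 2.16 ± 0.454 in irradiated bone EC and 0.893 ± 0.322 in bone EC. Within each table the irradiated group kept the higher ratio, while between tables irradiated bone EC lay below Vav1 control EC without overlap. The Eda2r ratio stayed highest in 9Gy1D EC (0.123 ± 0.0445) and lowest in bone EC (0.00199 ± 0.00130). Irradiated bone EC came next after 9Gy1D EC (0.0262 ± 0.00242) but overlapped the unirradiated Vav1 DTX EC (0.0202). Ephx1 was at 6.10 ± 1.26 per Cdh5 in 9Gy1D EC, and irradiated bone EC (0.936 ± 0.0827) overlapped Vav1 control EC (1 ± 0.201). Mdm2 had its lowest ratio of the 8 groups in irradiated bone EC (0.0827), apart from bone EC (0.151).

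**Figure D5:**
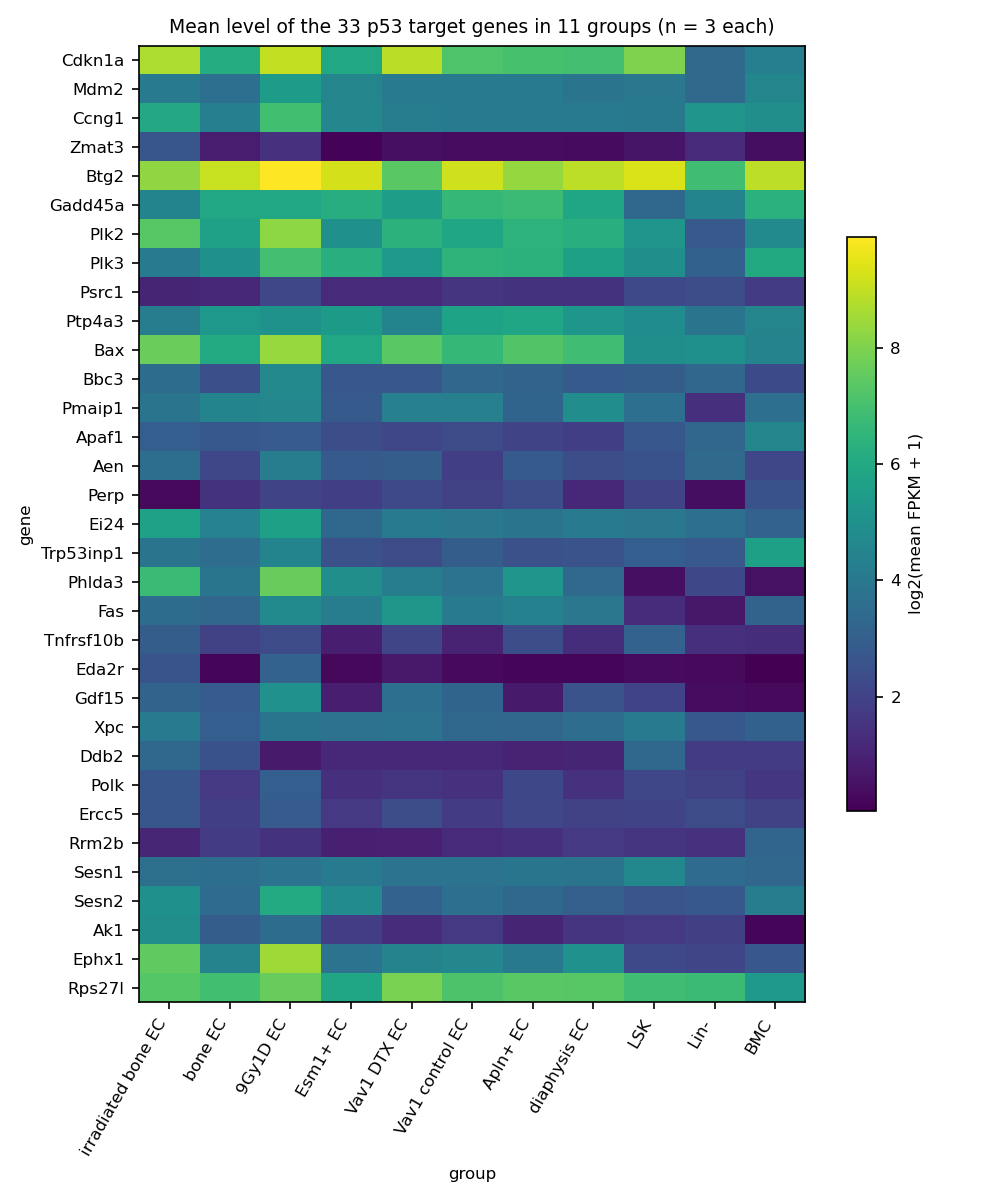
Mean level of the 33 members (rows, by role) in 11 groups (columns, n = 3 each) as log2(mean FPKM + 1), with the first-named group of each of the 3 comparisons left of the group it was set against. Cdkn1a is bright in 9Gy1D EC (510 FPKM), Vav1 DTX EC (469) and irradiated bone EC (411), while Eda2r is above 1 FPKM in the 2 irradiated groups alone.

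Genes around the members were read from lists of regulators, further targets and cell cycle genes. Trp53 itself, encoding p53, had 36.8, 27.6 and 30.7 FPKM in irradiated bone EC, against 32.2, 34.7 and 35.0 FPKM in bone EC, and was not called (log2 difference -0.10, adjusted p = 0.59). In 9Gy1D EC it had 17.2, 19.5 and 15.1 FPKM, against 25.6, 26 and 24.9 FPKM in Esm1+ EC, a difference of -0.54 (adjusted p = 0.014). It was thus called higher in neither irradiated group, and in Vav1 DTX EC it was not called (-0.06, adjusted p = 0.74). Of the 14 regulators and sensors, 10, 7 and 7 were tested in the 3 comparisons, none rose by limma, and 2, 2 and 1 fell, near the 19.4%, 23.1% and 15.0% of all genes called lower. At an unadjusted p below 0.05 the counts higher were 0, 2 and 0, and by voom 0, 1 and 0. Chek1, a checkpoint kinase gene, fell by 1.33 in irradiated bone EC (adjusted p = 0.0036), where every library was below 1 FPKM, so that it passed the filter through bone EC alone and had to differ. Hipk2, a p53 kinase gene, fell by 0.58 in irradiated bone EC (adjusted p = 0.048), by 0.98 in 9Gy1D EC (adjusted p = 0.015) and by 0.57 in Vav1 DTX EC (adjusted p = 0.049). The p53 inhibitor gene Mdm4 was called in none of the 3 (-0.12, 0.57 and 0.04).

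Of 20 further p53 targets, 10 rose and 4 fell in irradiated bone EC, and 11 of 18 rose and 2 fell in 9Gy1D EC. In Vav1 DTX EC none of 17 rose by limma (3 at an unadjusted p below 0.05, 1 by voom) and 5 fell. Over all genes 22.5% were called higher and 19.4% lower in irradiated bone EC, where the falls lie near that share. The shares were 20.6% and 23.1% in 9Gy1D EC and 11.3% and 15.0% in Vav1 DTX EC. Lif, a cytokine gene, had the largest log2 difference in irradiated bone EC (2.32), followed by 9030617O03Rik (Dglucy, 1.99), the long non-coding RNA Trp53cor1 (1.85) and the peptide transporter gene Tap1 (1.78). In 9Gy1D EC the sugar reductase gene Dcxr (3.07) led, with 9030617O03Rik (3.01), Slc19a2, a thiamine transporter gene (1.74), and Kank3 (1.64). In Vav1 DTX EC Pltp, a phospholipid transfer protein gene (-2.30), Pml (-1.26), Cd82 (-0.93) and Tap1 (-0.79) fell. Trp53cor1, which lies next to Cdkn1a, had 3.21, 5.04 and 3.07 FPKM in irradiated bone EC, against 0.462, 0.111 and 0.373 FPKM in bone EC. Trp53cor1 and Lif were below 1 FPKM in every bone EC library, as Trp53cor1 was in every Esm1+ library, so they passed the filter through the irradiated group alone and had to differ. Ppm1d, the phosphatase WIP1 that shuts the p53 response off, had 5.82, 8.12 and 6.70 FPKM in irradiated bone EC, against 9.91, 11.4 and 10.6 FPKM in bone EC, and fell by 0.57 (adjusted p = 0.022). It was not called in 9Gy1D EC (0.05) or Vav1 DTX EC (-0.06).

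The 20 cell cycle genes, which p53 represses indirectly through p21, all fell in irradiated bone EC with a median log2 difference of -2.47, and 19 of 20 fell in 9Gy1D EC with a median of -2. None of 20 was called in Vav1 DTX EC by limma, with 1 lower and 0 higher at an unadjusted p below 0.05, 0 by voom, and a median of 0.15. Their summed level was 149 to 214 FPKM in irradiated bone EC, against 681 to 735 FPKM in bone EC, and 170 to 436 FPKM in 9Gy1D EC, against 1204 to 1554 FPKM in Esm1+ EC. The largest differences in irradiated bone EC were those of Ccnb2 (-3.08), Ccna2 (-2.93), Mki67 (-2.90) and Birc5 (-2.83), and in 9Gy1D EC those of Ccna2 (-3.45), Mcm2 (-3.07), Plk1 (-3.06) and Rrm2 (-2.82). Blood precursors divide and carry these transcripts too, and the B lymphoid sum was 13.9 to 34.7 FPKM in irradiated bone EC, against 349 to 574 FPKM in bone EC. Their part in the result was not tested. Among 14 immediate early and dissociation genes, 6 rose and 1 fell in irradiated bone EC, 8 rose in 9Gy1D EC and 2 rose and 2 fell in Vav1 DTX EC. Over all genes 22.5% were called higher and 19.4% lower in irradiated bone EC, 20.6% and 23.1% in 9Gy1D EC and 11.3% and 15.0% in Vav1 DTX EC, and the Vav1 counts lie near those shares. Jun led in irradiated bone EC (1.85), Fosb in 9Gy1D EC (2.73) and Hspa1a in Vav1 DTX EC (2.07). Of the integrated stress response genes, 2 of 9 tested rose and 1 fell in irradiated bone EC, also near the shares over all genes, 4 of 8 rose and 2 fell in 9Gy1D EC, and 4 of 8 rose in Vav1 DTX EC, where none fell by limma, at an unadjusted p below 0.05 (0) or by voom (0), with Trib3 (1.04), Asns (-2.33) and Ddit4 (1.54) at the head of each list. Of the 33 members 12 overlap another annotated gene (Gadd45a, Plk3, Ptp4a3, Bax, Apaf1, Ei24, Fas, Ddb2, Polk, Rrm2b, Sesn2 and Ephx1), where reads counted without strand cannot be told apart.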

How the data were processed

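RNA-seq of 33 libraries was analysed. Per the submitters' processing notes, bcl2fastq 2.19.1.403, TopHat2 2.1.1, HTSeq 0.6.1 and DESeq2 1.18.1 were named, with build mm10; their roles and settings are not given in the sources used here. The authors deposited 4 tables of FPKM, normalized separately, and 27 rows per table with date-mangled names were left out. Per the labels' protocols, EC libraries were made with SMART-Seq v4 and Nextera XT, which keep no strand, and BMC and Lin- with a stranded total RNA kit. All 33 members and the lists were chosen with earlier results of these data known.

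FPKM values were whole multiples of 1 read for 100% of genes (within 0.005 reads), which gave the reads and depths. Intervals from such reads would cover counting error only. Genes with at least 1 FPKM in 3 libraries were tested with limma 3.58.1 (R 4.3.3, moderated with a trend) on log2(FPKM + 1), two-sided, with Benjamini-Hochberg adjustment over all genes tested and a threshold of 0.05; log2 differences understate low genes. An exact permutation test of 3 against 3 cannot go below 0.1 and was not used. All adjusted p are from limma. Members called, and 8 central ones (Cdkn1a, Mdm2, Ccng1, Bax, Bbc3, Phlda3, Eda2r and Gdf15) whatever their p, are given by library; of other lists the most changed called genes are named. The fit was tested on simulated data. Alternatives were pseudocounts of 0.1 and 5, other filters, TPM, median-of-ratios, Cdh5 and pan-endothelial scaling, no trend, a replicate block, voom and each library left out. Averaging Esm1+ replicates 1 and 2 was chosen after seeing the data.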

Additional observations from a re-analysis of the deposited data

Results flagged for a closer look

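The difference between irradiated bone EC and bone EC was not the same as that between Vav1 DTX EC and Vav1 control EC, by the test of the difference itself in limma with 3 libraries a group, for 11 members. The differences of the contrasts were 3.23 for Ephx1, 2.57 for Phlda3, 2.01 for Sesn2, 1.98 for Eda2r, 1.81 for Zmat3, 1.68 for Bbc3, 1.63 for Ccng1, 1.16 for Ei24, 1.09 for Btg2, 0.83 for Ddb2 and 0.82 for Bax, on the log2 scale. Scaled to Cdh5, 2 of them (Ephx1 and Phlda3) stayed called, Bax was -0.08 and Ddb2 0.00, and scaled to the pan-endothelial list 4 stayed called. Bax, Btg2 and Ddb2 lost the call in several fits without 1 library, and Eda2r and Zmat3 passed the filter on low values through irradiated bone EC alone, which favours that direction. The neutrophil sum was 1041 to 4610 FPKM in irradiated bone EC and 37950 to 87155 FPKM in Vav1 DTX EC, and its part in these differences was not tested.

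In 3 members every library of one irradiated group lay on one side of its comparison group and every library of the other irradiated group on the opposite side. Btg2 differed by -0.80 in irradiated bone EC and 0.63 in 9Gy1D EC, Plk3 by -0.86 and 0.72, and Ddb2 by 0.77 and -0.38. The Ddb2 value of -0.38 was not called (adjusted p = 0.14), and the filter fixed its direction, since every 9Gy1D library was below 1 FPKM. Scaled to Cdh5, Btg2 was at -2.05 in irradiated bone EC and -1.12 in 9Gy1D EC, and Plk3 at -2.05 and -1.01. That scaling lowered the median of all genes in 9Gy1D EC by more than the rises of 0.63 and 0.72. The loss of opposite signs therefore says nothing particular to Btg2 and Plk3. Ddb2 was -0.31 in irradiated bone EC after scaling. The difference between the 2 comparisons was not tested.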

How the results depend on the processing

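Scaling to Cdh5 called 9245 genes, 5 members higher and 13 lower in irradiated bone EC, 9709, 7 and 11 in 9Gy1D EC, 1167, 0 and 2 in Vav1 DTX EC, and 613 genes and 2 members higher for the difference of the contrasts. Pan-endothelial scaling called 9391, 5 and 12, then 8509, 10 and 7, then 1484 genes and 0 higher, and 1908 and 4. Of all calls in the 4 fits, 53.8%, 47.2%, 43% and 51.1% were higher, against 3.5%, 4%, 9.9% and 30.2% scaled to Cdh5 and 4.6%, 5.8%, 8.7% and 14.9% scaled to the pan-endothelial list; as TPM the first 3 were 68%, 64% and 68.7%. As TPM 3 members were lower in irradiated bone EC and 6 higher in Vav1 DTX EC. Scaling all 33 libraries together put Cdkn1a in 9Gy1D EC at 543 FPKM, against 510.

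Signs turned in irradiated bone EC scaled to Cdh5 for Apaf1 (-0.87), Ddb2 (-0.31), Ercc5 (-0.16), Fas (-0.89), Gdf15 (-0.91), Mdm2 (-0.70), Rps27l (-0.88), Sesn1 (-1.03), Tnfrsf10b (-0.03), Trp53inp1 (-0.87) and Xpc (-0.05), and scaled to the pan-endothelial list for Apaf1 (-0.80), Ddb2 (-0.24), Ercc5 (-0.09), Fas (-0.82), Gdf15 (-0.83), Mdm2 (-0.62), Rps27l (-0.80), Sesn1 (-0.95) and Trp53inp1 (-0.80). Psrc1 was 0.03 as TPM. In 9Gy1D EC they turned with Cdh5 for Aen (-0.24), Btg2 (-1.12), Ercc5 (-0.13), Fas (-1.05), Mdm2 (-0.72), Plk3 (-1.01) and Sesn2 (-0.43), and with the pan-endothelial list for Btg2 (-0.78), Fas (-0.73), Mdm2 (-0.40), Plk3 (-0.68) and Sesn2 (-0.10). In Vav1 DTX EC Ccng1 and Mdm2 turned to -0.28 each with Cdh5 and to -0.31 and -0.30 with the list. For the difference of the contrasts Bax (-0.08), Ddb2 (0.00) and Mdm2 (-0.36) turned with Cdh5 and Mdm2 (-0.30) with the list. These 2 scalings divide by genes that were themselves higher in the irradiated groups.

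Leaving out 1 library gave 3724 to 5919 genes, 15 to 17 members higher and 4 to 6 lower in irradiated bone EC, 3417 to 4794, 18 to 22 and 0 to 1 in 9Gy1D EC, 1124 to 4764, 1 to 6 and 3 to 8 in Vav1 DTX EC, and 2408 to 4985, 7 to 14 and 0 to 1 for the difference. Eda2r and Zmat3, and in 9Gy1D EC Tnfrsf10b, were not tested without a library of the irradiated group, which lowers the member counts there. The highest Vav1 count was without Vav1 DTX EC replicate 2, and the counts without Vav1 control replicates 1, 2 and 3 were 1124, 1199 and 1194; 3417 was without Esm1+ replicate 2 and 2408 without irradiated bone EC replicate 3. Ranges that crossed 0 were -0.03 to 0.29 for Sesn1, -0.03 to 0.38 for Fas and -0.23 to 0.38 for Gdf15 in irradiated bone EC, and -0.15 to 0.23 for Ccng1 and -0.01 to 0.12 for Mdm2 in Vav1 DTX EC. The cause of these changes was not tested.

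Replicate numbers did not pair the libraries: same-numbered deviations correlated at -0.16, 0.26 and 0.21 in the irradiation comparison, -0.05, 0.05 and -0.03 for 9Gy1D EC and 0.15, -0.04 and -0.22 for the Vav1 groups. With the replicate block 4402, 4521, 2123 and 2399 genes were called, with 18, 23, 3 and 10 members higher and 6, 0, 4 and 0 lower. Voom on the recovered reads called 5525, 5151, 3248 and 3423 genes. With 3 libraries a group and 1 to 25 reads of Eda2r and Zmat3 in bone EC libraries, depth limits the size of their differences.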
